A study of Homo sapiens with 6 samples.

Results

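The prefoldin subunits were followed through irradiation of HMC3 cells as the 8 genes PFDN1, PFDN2, PFDN4, PFDN6, PFDN5, VBP1, URI1 and UXT, out of 11118 genes kept for testing. The genes were selected by name, and all of their transcript entries were taken. The family was, however, chosen from results of these same libraries, since a gene-level list with the canonical prefoldin and chaperonin subunits, the fold change of PFDN4 and the usage of 1 PFDN1 isoform had been seen before. The lower levels of the canonical and chaperonin subunits and of their main isoforms, and that PFDN1 isoform, are therefore given as descriptions, with no p-value. The 8 genes held 62 deposited transcripts, of which 53 passed the filter on low counts, out of 74843 kept in all.

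HMC3 is an immortalized human line labelled as microglia. Irradiated cells received 15 Gy of X-rays and control cells 0 Gy, both were collected after 24 h, and each group had 3 independent cultures of this single line and no further manipulation. Polyadenylated RNA was read on Nanopore flow cells as PCR-amplified cDNA from a protocol for full-length transcripts. The values are whole-number counts per transcript. The totals ran from 6292049 to 6909420 counts in irradiated libraries and from 4870897 to 9082409 in control libraries. Of 14 microglial markers, 8 had no count listed in any of the 6 libraries, among them TMEM119, P2RY12, CX3CR1 and ITGAM, and TREM2 and CD68 alone reached a mean of 1 CPM (counts scaled to an equal library size). The summed microglial markers were 33.2 to 38.7 CPM in irradiated and 24.2 to 35.6 CPM in control libraries, against 276.7 to 332.9 CPM and 314.8 to 338.2 CPM for 8 fibroblast and pericyte markers. Of these 8, COL3A1 and LUM had no count listed and DCN had counts in irradiated 2 alone, COL1A1 and THY1 made up most of the sum, and neither list was present as a whole.

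Prefoldin is a jellyfish-shaped cytosolic co-chaperone that takes up unfolded actin and tubulin chains as they leave the ribosome and passes them to the ring-shaped chaperonin CCT. It is built from alpha-type subunits, VBP1 and PFDN5, and beta-type subunits, PFDN1, PFDN2, PFDN4 and PFDN6. URI1 and UXT are alpha-type relatives that form a separate prefoldin-like complex with PFDN2, PFDN6 and the RUVBL1 and RUVBL2 ATPases, which is known for the assembly of RNA polymerases.

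The isoforms on which the results turned differ from the principal isoforms of their genes by whole exons. Relative isoform usage was expressed as the isoform fraction (IF), the share of a gene's counts that falls on 1 isoform, and dIF is the IF of irradiated minus that of control cells in percentage points. Coordinates and exons are those of GENCODE release 29 on GRCh38, and the principal isoform is the one that this annotation marks as such. The skipped exons are shown in capitals with 12 flanking bases of the neighboring exons in lower case, since a minor isoform each of PFDN1, PFDN2 and UXT leaves them out. The PFDN1 isoform lacks exon 1 as well.
PFDN1 exon 3 (chr5:140281449-140281533, minus strand): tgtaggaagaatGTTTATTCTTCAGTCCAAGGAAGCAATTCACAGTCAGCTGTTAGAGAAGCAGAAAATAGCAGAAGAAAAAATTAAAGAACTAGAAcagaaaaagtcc
PFDN2 exon 2 (chr1:161102287-161102375, minus strand): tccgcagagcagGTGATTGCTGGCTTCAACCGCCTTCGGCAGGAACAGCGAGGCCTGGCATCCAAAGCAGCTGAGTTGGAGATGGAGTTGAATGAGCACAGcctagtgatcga
PFDN2 exon 3 (chr1:161102048-161102171, minus strand): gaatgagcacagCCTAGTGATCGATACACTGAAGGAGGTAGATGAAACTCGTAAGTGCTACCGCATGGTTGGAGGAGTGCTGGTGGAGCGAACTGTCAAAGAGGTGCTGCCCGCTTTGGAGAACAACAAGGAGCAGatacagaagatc
UXT exon 4 (chrX:47657572-47657639, minus strand): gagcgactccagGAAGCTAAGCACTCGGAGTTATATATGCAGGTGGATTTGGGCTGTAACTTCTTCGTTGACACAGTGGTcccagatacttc

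All 4 exons are coding over their whole length, and none of the lengths of 85, 89, 124 and 68 bases is a multiple of 3. The pair left out of the PFDN2 isoform adds up to 213 bases, which is. The junctions that mark the minor isoforms are shown with 15 bases on each side and the downstream exon in capitals, each beside the junction of the principal isoform that it replaces. For UXT, the junction of ENST00000335890 stands for both coding isoforms, which are alike there.
PFDN1 ENST00000514611 (joined exons, chr5:140245087-140300583, minus strand): aggtgtaggaagaatCAGAAAAAGTCCTAC
PFDN1 ENST00000261813 (joined exons, chr5:140281449-140300582, minus strand): aggtgtaggaagaatGTTTATTCTTCAGTC
PFDN2 ENST00000468311 (joined exons, chr1:161100556-161118055, minus strand): gtgtccgcagagcagATACAGAAGATCATT
PFDN2 ENST00000368010 (joined exons, chr1:161102287-161118111, minus strand): gtgtccgcagagcagGTGATTGCTGGCTTC
UXT ENST00000485641 (joined exons, chrX:47657183-47657863, minus strand): attgagcgactccagCCCAGATACTTCACG
UXT ENST00000335890 (joined exons, chrX:47657572-47657863, minus strand): attgagcgactccagGAAGCTAAGCACTCG
VBP1 ENST00000625964 (joined exons, chrX:155208904-155220307, plus strand): tccccagagcatcagGAAGATGTAGATTCC
VBP1 ENST00000286428 (joined exons, chrX:155216366-155220307, plus strand): gaggccgtgtttgtgGAAGATGTAGATTCC

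The VBP1 pair shares its exons from the second on, apart from the end of the last, and differs in the annotated first exon. The first exon of ENST00000625964 lies 7462 bases upstream of that of ENST00000286428. UXT ENST00000460840 and PFDN5 ENST00000548984, as annotated, start inside an intron of the principal isoform and carry only its last exons. PFDN1 ENST00000514611 also starts late, at the second exon. Whether cDNA cut short at its start adds to the counts of such isoforms was not tested.

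**Figure D1:**
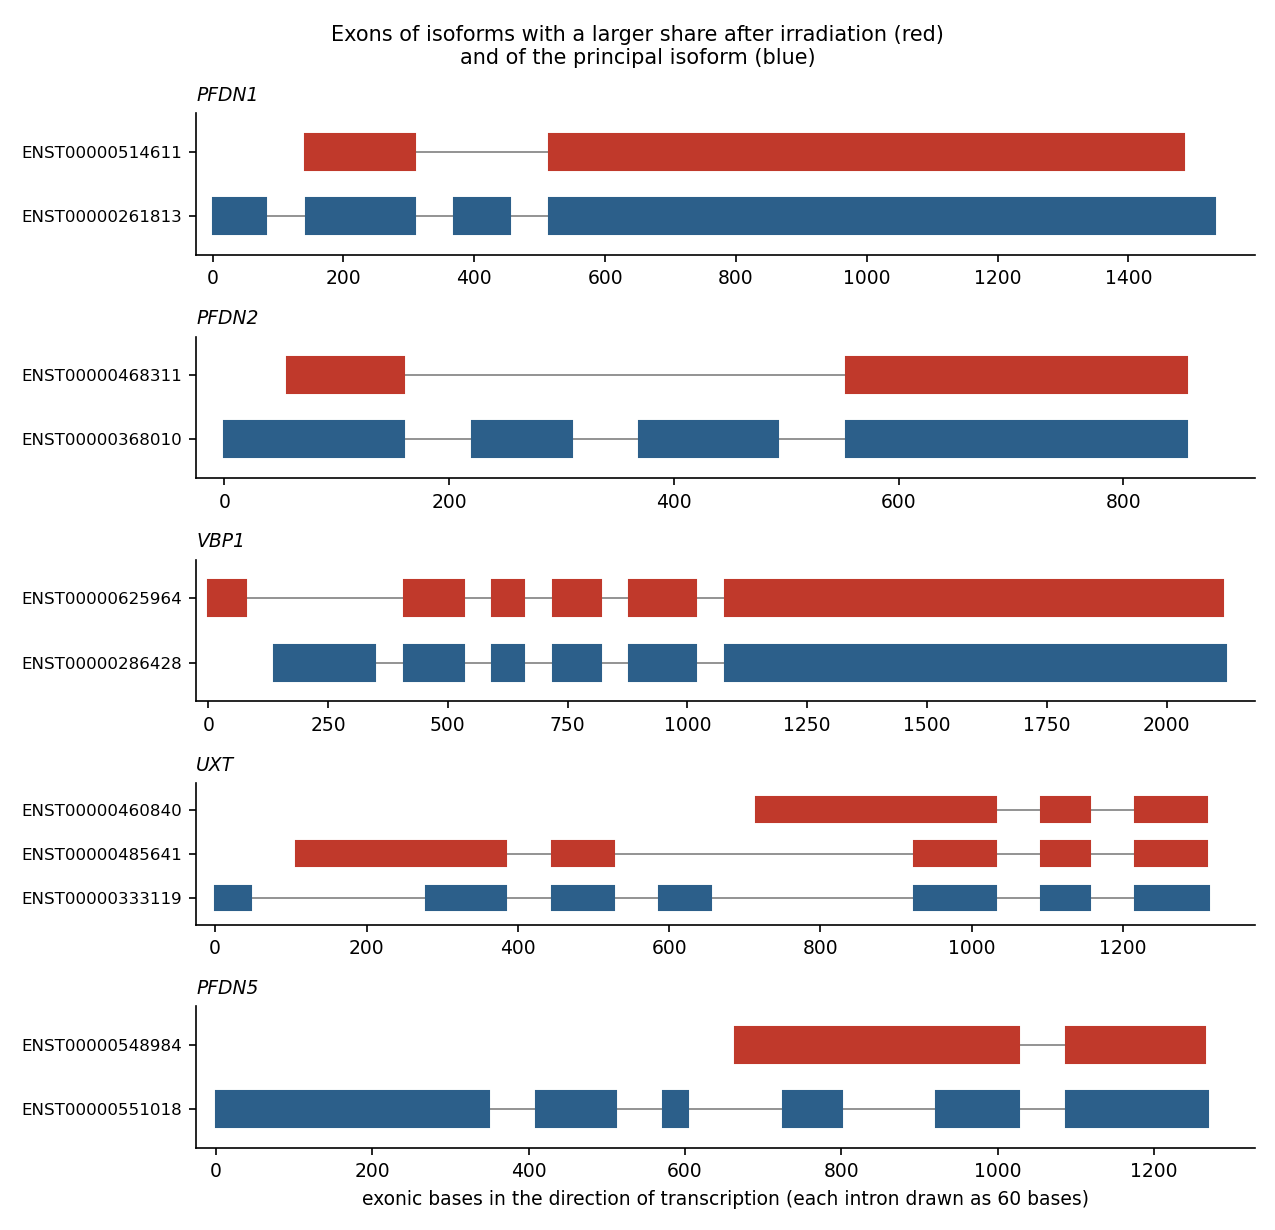
Exons of minor isoforms with a larger share in irradiated cells (red) above those of the principal isoform of the same gene (blue), for 5 genes. The x axis gives exonic bases in the direction of transcription with every intron drawn at 60 bases. It shows the missing exon 3 of PFDN1, exons 2 and 3 of PFDN2 and exon 4 of UXT. Also drawn are the upstream first exon of VBP1 and the annotated late starts of UXT ENST00000460840 and PFDN5 ENST00000548984.

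At the gene level, 6 of the 8 members were lower and 2 higher in irradiated cells by fold change. Of the 8, 5 passed at an adjusted p under 0.05 (edgeR's quasi-likelihood test, Benjamini-Hochberg over all genes), all lower, where 14.1% of all genes tested passed as lower and 11.6% as higher, and nothing is read from this count because 4 of the 5 belong to the canonical subunits already seen. None passed with an absolute log2 fold change over 1, as 5.7% of all genes did. The median log2 fold change was −0.42 over the members and 0.08 over all genes. The 6 canonical subunits summed to 1105, 1352 and 1254 CPM in the irradiated cultures and to 1832, 1990 and 1640 CPM in the control cultures. In bulk RNA, less RNA per cell and fewer cells that express a gene cannot be told apart.

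The alpha-type PFDN5 (chr12:53295291-53299450), which also binds the oncoprotein MYC, was the most abundant member per length. It had 649.3, 817.1 and 718.3 CPM in irradiated cultures, against 1092, 1193 and 955.3 CPM in control cultures. Every irradiated culture lay below every control culture, and the log2 fold change was −0.57 ± 0.13 (SE). VBP1 (chrX:155197007-155239817), the alpha-type subunit first found as a partner of the von Hippel-Lindau protein, had 49.8, 61.2 and 56.6 CPM in irradiated and 71.2, 71.3 and 66.6 CPM in control cultures. The VBP1 groups did not overlap, as was the case with irradiated below control for 21.3% of all genes, but its log2 fold change of −0.32 ± 0.14 (SE) did not pass the test.

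Among the beta-type subunits, PFDN4 (chr20:54207847-54228052) had 212.5, 270.2 and 276.6 CPM in irradiated cultures, against 412.9, 453.3 and 382.5 CPM in control cultures, with a log2 fold change of −0.72 ± 0.13 (SE). PFDN1 (chr5:140245039-140303121) had 86.2, 97.1 and 104.4 CPM in irradiated and 131.2, 148.2 and 114.2 CPM in control cultures, with a log2 fold change of −0.45 ± 0.13 (SE). Irradiated 3 and control 3 came closest to each other in both genes. PFDN2 (chr1:161100556-161118111), the beta-type subunit that both complexes share with PFDN6, had 68.6, 71.9 and 80.0 CPM in irradiated and 95.3, 97.9 and 94.4 CPM in control cultures, with a log2 fold change of −0.38 ± 0.13 (SE). PFDN6 (chr6:33289302-33298401) had 38.1, 34.8 and 18.3 CPM in irradiated and 29.4, 25.7 and 27.4 CPM in control cultures. The irradiated cultures of PFDN6 lay on both sides of the controls, and its log2 fold change of 0.15 ± 0.23 (SE) became −0.05 without irradiated 1.

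UXT (chrX:47651798-47659161), a small alpha-type protein that is also a cofactor of nuclear receptors and NF-kappaB, had 137.8, 163.3 and 147.5 CPM in irradiated cultures and 235.6, 294.6 and 226.1 CPM in control cultures. UXT fell by 0.75 on the log2 scale (SE 0.13, adjusted p = 0.0011, edgeR), and no irradiated culture reached a control culture. An antisense gene, UXT-AS1, shares 151 exonic bases with UXT and stood at 0.54, 0.45 and 0.51 CPM in irradiated and 2.01, 1.07 and 1.11 CPM in control cultures. Without stated strand handling, reads of the pair cannot be told apart over those bases. PFDN1 likewise shares 37 exonic bases with CYSTM1 and PFDN2 shares 26 with NIT1, both on the other strand. URI1 (chr19:29923644-30016608), the scaffold of the prefoldin-like complex, was the least abundant member and the only one higher in every irradiated culture, at 18.1, 15.6 and 15.7 CPM against 14.5, 12.7 and 11.1 CPM in control cultures. With 58 to 135 counts per library its log2 fold change of 0.38 ± 0.22 (SE) did not pass (adjusted p = 0.21, edgeR).

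**Figure D2:**
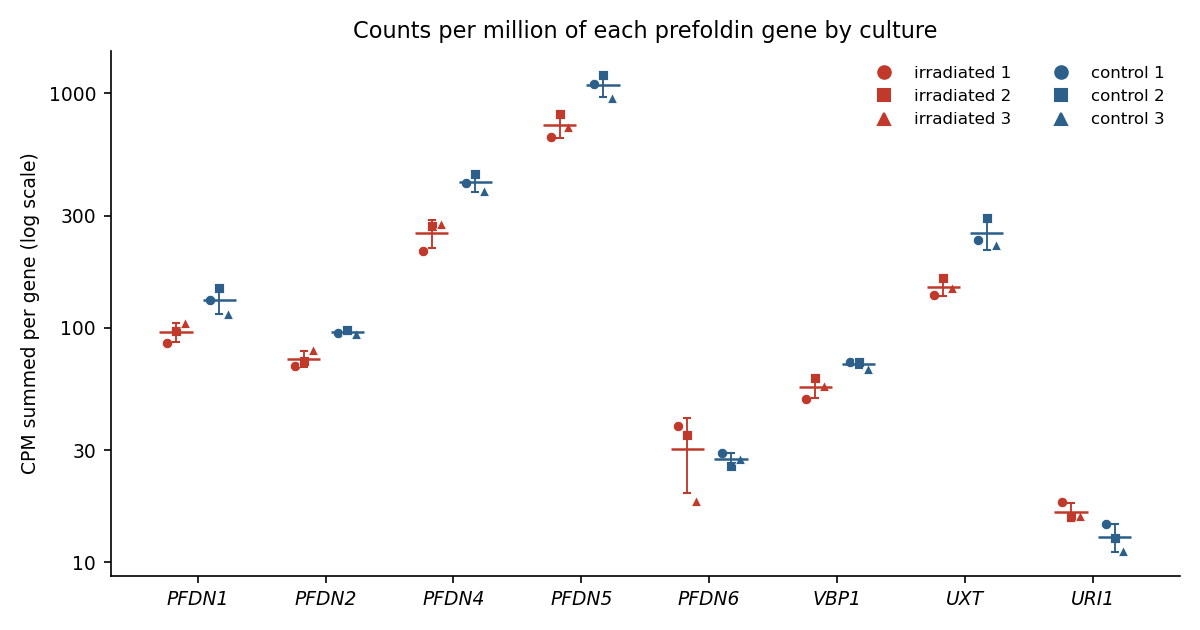
CPM summed per gene in each culture for the 8 members, on a log scale, with irradiated cultures (red) left of control cultures (blue), marker shape by culture number, and bars for the mean and SD (n = 3 each). All irradiated cultures lie below all control cultures for PFDN1, PFDN2, PFDN4, PFDN5, VBP1 and UXT, the PFDN6 groups overlap, and URI1 lies higher in irradiated cultures.

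Divided by the count-weighted transcript length, the levels of the members spanned a wide range. PFDN5 led with 1074 ± 124 CPM per kilobase in irradiated and 1593 ± 176 in control cultures (SD, n = 3 each). UXT followed with 236 ± 20.3 in irradiated and 398 ± 58.6 in control cultures, and its neighbor PFDN4, with 209 ± 29.2 and 344 ± 29.4, did not differ from it beyond the spread. PFDN2 had 115 ± 9.13 in irradiated and 150 ± 2.83 in control cultures, and PFDN1 had 74.3 ± 7.12 and 101.7 ± 13.2. PFDN6, with 39.4 ± 13.8 in irradiated and 35.6 ± 2.36 in control cultures, and VBP1, with 33.9 ± 3.48 and 42.3 ± 1.63, changed places between the groups, and URI1 was lowest with 6.20 ± 0.53 and 4.82 ± 0.65.

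The size of these differences depended on the scaling. With library totals in place of TMM factors the median of all genes moved to a log2 fold change of 0.53 and that of the members to 0.04, so that the members stayed below the median gene, PFDN1 (0.01), PFDN2 (0.07) and VBP1 (0.13) turned to positive values, and PFDN4 (−0.27), PFDN5 (−0.12) and UXT (−0.30) stayed negative. Under that scaling 3 members passed, PFDN4 and UXT as lower and URI1 as higher. The share of all genes that passed is not given for this fit or the following ones, and nothing is read from how many members passed. With an offset for the dependence of counts on transcript length in each library, the members' median was −0.24 against −0.04 over all genes, and 2 members passed, PFDN4 (−0.52) and UXT (−0.41, adjusted p = 0.0108, edgeR). Leaving out irradiated 1, control 1 or control 2 also left 3 members past the threshold, since PFDN1 (log2 fold change −0.38, −0.47 and −0.34 in that order) and PFDN2 (−0.34, −0.40 and −0.36) no longer passed.

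**Figure D3:**
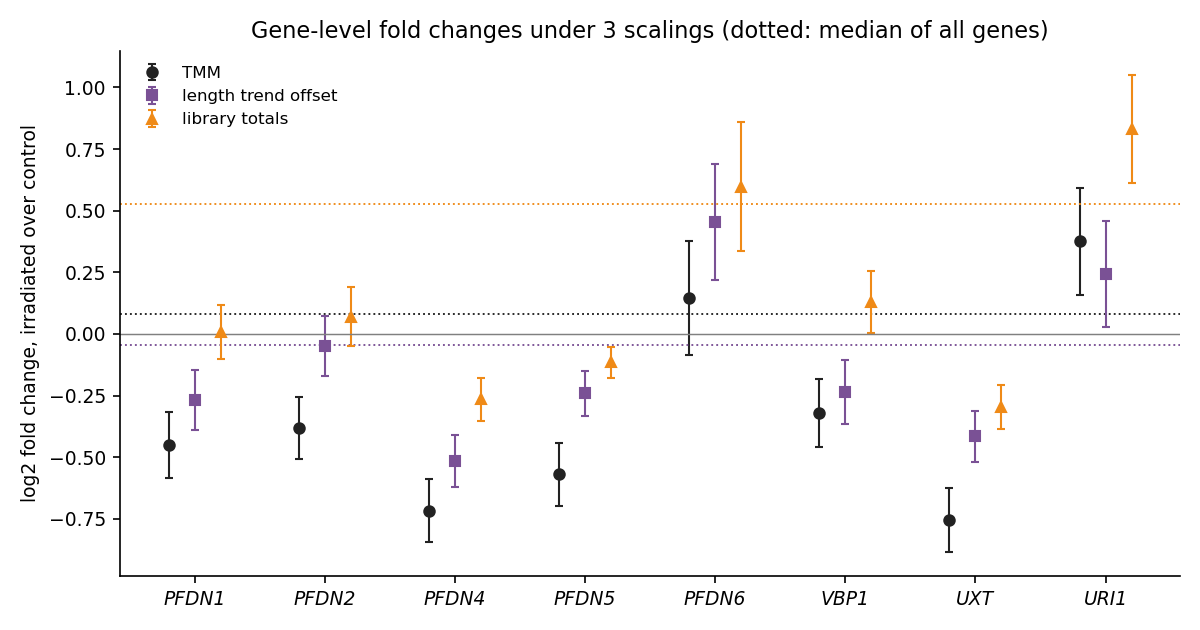
Gene-level log2 fold change of irradiated over control for the 8 members under TMM factors, the length trend offset and library totals, with SE bars, and dotted lines for the median of all genes under each scaling (0.08, −0.04 and 0.53). PFDN4, PFDN5 and UXT stay below 0 under all 3 scalings, while PFDN1, PFDN2 and VBP1 cross 0 with library totals.

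Transcript length moved with the group in these libraries. Genes with a weighted length under 1000 bases had a median log2 fold change of −0.44 and 37.1% of them passed as lower, whereas genes of 2000 bases and over had a median of 0.22 and 7.05% passed as lower. Genes of 1000 to under 2000 bases lay between, with a median of −0.22 and 26.8% passed as lower. UXT (633 bases), PFDN2 (641), PFDN5 (678) and PFDN6 (773) belong to the short class. PFDN4 (1209), PFDN1 (1290) and VBP1 (1647) belong to the middle class, and URI1 (2654) to the long one. Genes under 1000 bases deviated by −0.28, −0.10 and −0.20 (median log2) in irradiated 1, 2 and 3 and by 0.22, 0.34 and 0.12 in control 1, 2 and 3, so that irradiated 2 and control 3 lay nearest to the other group. Its part in the members' differences was not tested beyond the offset above.

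At least 1 isoform passed the usage test in 5 of the 8 genes, where 13.4% of all genes had at least 1. Of the 53 kept isoforms 11 passed at an adjusted p under 0.05 in the usage test (edgeR's diffSpliceDGE, adjusted over all transcripts), all 11 with a larger share in irradiated cells and 0 with a smaller one, where 3.53% of all isoforms passed as higher and 0.911% as lower. PFDN5 held 6 of them, UXT 2, and PFDN1, PFDN2 and VBP1 1 each, while PFDN4, PFDN6 and URI1 held none. The PFDN1 isoform is the one that had been seen before. All 11 were minor isoforms, and 9 of them belong to a transcript biotype other than protein_coding, against 52.7% of all annotated isoforms with higher usage and 37.5% of all annotated isoforms tested. The 2 isoforms of PFDN2 had equal and opposite dIF, and only the minor one passed, so this test did not treat both sides alike. The main isoforms of PFDN1 and VBP1, with a dIF of −15.6 and −17.2 points, did not pass either. Nothing is read from the lack of isoforms with a smaller share. Which isoforms passed depended on the tool, while the dIF of each isoform was the same. With limma's diffSplice, 9 member isoforms passed as higher and 8 as lower, where 3.56% and 2.95% of all isoforms did, and those 8 were the main isoforms of PFDN1, PFDN2 and VBP1, both coding isoforms of UXT and the 3 abundant ones of PFDN5. With the further limit of 10 percentage points on dIF, 2 isoforms remained, 1 of PFDN1 and 1 of VBP1, where 0.404% of all isoforms passed.

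VBP1 ENST00000625964, the protein_coding isoform from the upstream first exon, took 34.1%, 29.3% and 32.7% of the gene's counts in irradiated cultures, against 14.8%, 11.2% and 21.2% in control cultures. The lowest irradiated culture stood above the highest control culture, and the dIF was 16.4 percentage points (adjusted p = 0.00063, edgeR). ENST00000286428, the principal VBP1 isoform, accounted for 64.8%, 68.9% and 66.4% in irradiated and 84.9%, 88.6% and 78.1% in control cultures. In CPM, ENST00000625964 averaged 17.8 ± 0.78 in irradiated and 10.9 ± 3.08 in control cultures (SD, n = 3 each, adjusted p = 0.00558, edgeR), which did not pass without control 2 (adjusted p = 0.113, edgeR). ENST00000286428 averaged 37.3 ± 4.97 CPM in irradiated and 58.6 ± 5.82 CPM in control cultures, and its log2 fold change was −0.70 with TMM factors and −0.20 with library totals. The 2 isoforms annotate coding sequences of 576 and 591 bases, and ENST00000625964 covers 84.3% of the principal coding bases. This is therefore the usage change in which both isoforms keep a long annotated open reading frame. The 2 isoforms are 1547 and 1686 bases long, above the average read length that the study states. Reads that do not reach the first exon match both isoforms, and their part in the dIF was not tested.

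PFDN1 ENST00000514611, a processed transcript that begins at the second exon and skips exon 3, accounted for 31.4%, 24.2% and 30.5% of PFDN1 counts in irradiated cultures and for 11.7%, 9.91% and 15.7% in control cultures. Its counts were 202, 157 and 249 in irradiated libraries and 61, 96 and 145 in control libraries. The principal PFDN1 isoform ENST00000261813 held 65.8%, 70.4% and 66.0% in irradiated and 83.7%, 85.6% and 79.9% in control cultures. Of the principal coding bases, 67.8% lie within exons of ENST00000514611, for which no coding sequence is annotated. A further protein_coding isoform, ENST00000510217, was past the limits for lower abundance (log2 fold change −1.15, SE 0.33), with 9 to 16 counts in irradiated and 17 to 34 in control libraries. It did not pass without irradiated 1 (−0.93), without control 2 (−0.80), with library totals (−0.65) or with DESeq2 (−1.24).

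PFDN2 has 2 deposited isoforms. ENST00000468311, a processed transcript that joins the first exon to the last, took 19.9%, 14.8% and 17.6% of counts in irradiated and 9.21%, 7.50% and 11.8% in control cultures (dIF 7.91 percentage points, adjusted p = 0.00547, edgeR). Irradiated 2 and control 3 again lay closest, and the adjusted p (edgeR) became 0.0887 without irradiated 1, 0.0536 without irradiated 3 and 0.0834 without control 2. The coding isoform ENST00000368010 averaged 60.8 ± 5.50 CPM in irradiated and 86.8 ± 3.64 CPM in control cultures (SD, n = 3 each). Its log2 fold change was −0.57 with TMM factors and −0.06 with library totals. ENST00000468311 averaged 12.8 ± 1.88 and 9.08 ± 1.91 CPM, a difference that did not pass by abundance (adjusted p = 0.116, edgeR).

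The 2 coding isoforms of UXT, ENST00000335890 and ENST00000333119, together made up 83.0%, 86.8% and 83.4% of counts in irradiated cultures and 95.8%, 95.4% and 91.7% in control cultures. Each fell by abundance, with log2 fold changes of −0.98 and −0.96 (adjusted p = 1.48e-07 and 2.31e-07, edgeR), but their counts differed from each other by only 3.67% to 6.87% in every library, so they are not independent measurements. ENST00000460840, which starts in the intron before the fifth exon, took 7.57%, 5.77% and 7.63% in irradiated and 1.28%, 1.66% and 3.28% in control cultures (adjusted p = 2.26e-06, edgeR). ENST00000485641, annotated for nonsense-mediated decay, skips the 68-base exon and took 8.45%, 6.68% and 8.15% in irradiated and 2.56%, 2.60% and 4.59% in control cultures (adjusted p = 0.000126, edgeR). Summed, the pair held 16.0%, 12.5% and 15.8% in irradiated and 3.83%, 4.26% and 7.87% in control cultures. By abundance ENST00000460840 was higher in irradiated cells (log2 fold change 0.88, SE 0.22, adjusted p = 0.000986, edgeR), whereas ENST00000485641, at 0.42 ± 0.20, did not pass (adjusted p = 0.134, edgeR).

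PFDN5 spread its counts over 20 kept isoforms, and each of the 6 with a usage call was small. The 6 together held 11.8%, 9.32% and 11.9% of PFDN5 counts in irradiated cultures and 5.49%, 4.54% and 7.02% in control cultures. ENST00000548984, a retained-intron isoform with the last part of the gene only, took 1.38%, 0.86% and 1.21% in irradiated and 0.21%, 0.19% and 0.49% in control cultures (adjusted p = 2.23e-09, edgeR). It was also the only member isoform called higher by abundance, with a log2 value of 1.28 ± 0.25 (SE) for irradiated over control (adjusted p = 1.29e-05, edgeR), from 47 to 68 counts in irradiated and 9 to 38 in control libraries. ENST00000552742 and ENST00000547130, both annotated for nonsense-mediated decay, had a dIF of 0.85 and 1.04 percentage points. The retained-intron isoforms ENST00000552341 and ENST00000550069 had a dIF of 0.89 and 0.83 points, and ENST00000550846, a short protein_coding isoform with 54.5% of the principal coding bases, 0.85 points. Of these 6, ENST00000547130 passed least firmly (adjusted p = 0.025, edgeR) and missed the threshold in 4 of the 6 fits that leave out a library, those without irradiated 1 (0.195), irradiated 3 (0.337), control 1 (0.0939) and control 2 (0.202). With limma's diffSplice, neither ENST00000547130 (adjusted p = 0.584) nor ENST00000550069 (0.191) passed.

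The 3 abundant PFDN5 isoforms, ENST00000551018, ENST00000676468 and ENST00000334478, summed to 69.6%, 74.8% and 68.7% in irradiated and 79.4%, 82.7% and 77.2% in control cultures. Their log2 fold changes by abundance were −0.80, −0.80 and −0.77 with TMM factors. ENST00000551018 and ENST00000676468 differed by 0.15% to 3.34% in their counts and cannot be read as separate measurements, and ENST00000676468 is absent from GENCODE release 29, so its exons were not examined.

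**Figure D4:**
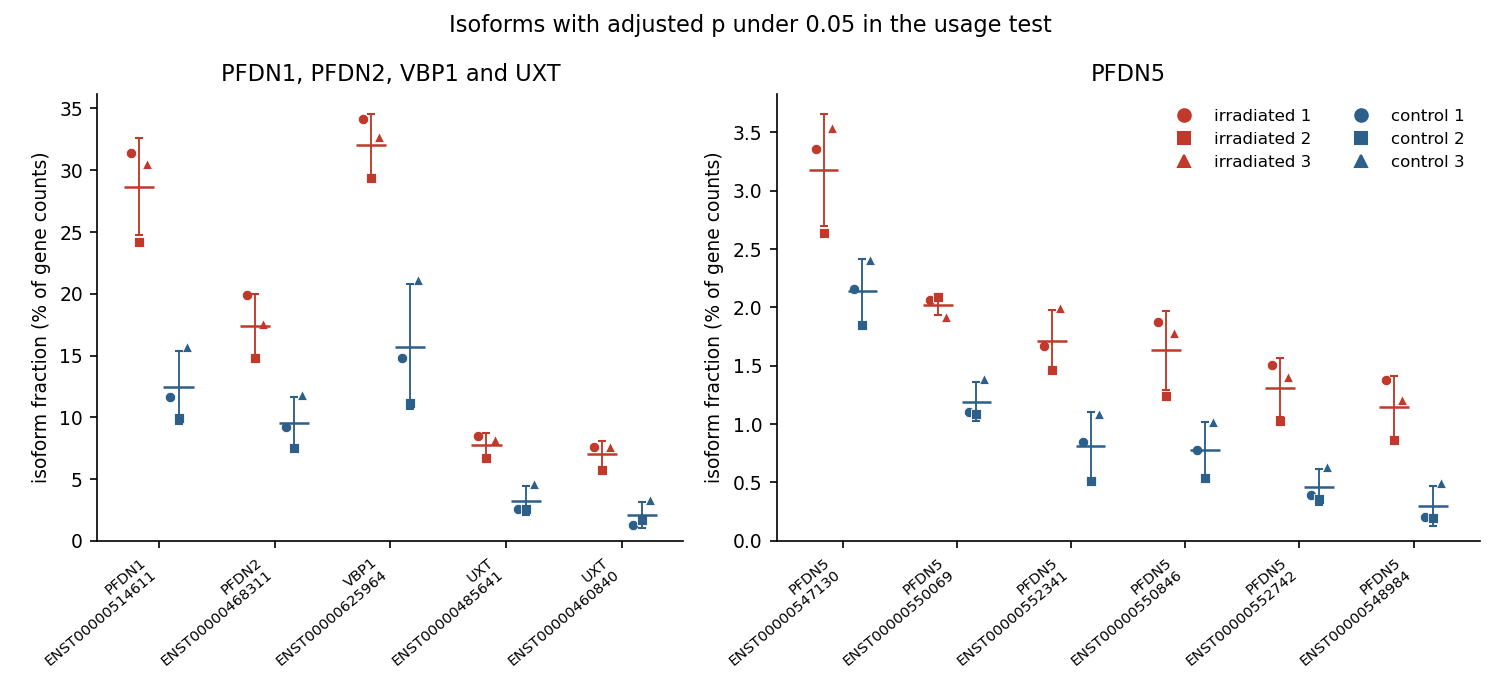
Isoform fraction in percent of the gene's counts in each culture for the 11 isoforms that passed the usage test, with PFDN1, PFDN2, VBP1 and UXT on the left and PFDN5 on the right on its own scale. Irradiated cultures (red) stand left of control cultures (blue), and bars give the mean and SD (n = 3 each). In all 11, which were selected on the test of these values, the lowest irradiated culture exceeds the highest control culture, as in 15.9% of all isoforms.

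The cultures were ordered alike across these isoforms. Control 3 was the highest control in all 11, control 2 the lowest in 9, and irradiated 2 the lowest irradiated culture in 10. The same counts over all isoforms were not taken. Over genes of at least 10 CPM, control 3 was the control closest to each irradiated culture (Pearson r of log2 CPM 0.959 to 0.973). Irradiated 2 was the irradiated culture closest to each control (0.946 to 0.973). These correlations are of gene-level counts and do not measure isoform fractions, so whether the order is particular to these isoforms was not tested. The same cultures, control 3 and irradiated 2, lay nearest to the other group in the length trend of short genes above. The isoforms of 1 gene share its counts, and the relation of the isoform fractions to that trend was not tested.

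PFDN4 had no usage call beside its lower counts. Its near-identical isoforms ENST00000715725 and ENST00000371419, whose counts differed by 0.58% to 1.75%, together held 80.0%, 80.2% and 79.2% in irradiated and 83.5%, 80.2% and 80.6% in control cultures. The isoforms ENST00000493356 and ENST00000487129, both processed transcripts with 94.0% of the principal coding bases, averaged 11.9% ± 0.50 and 7.40% ± 0.52 in irradiated and 11.5% ± 0.68 and 5.83% ± 0.89 in control cultures (SD, n = 3 each). The smallest adjusted p for PFDN4 usage was 0.455 (edgeR). ENST00000441080, annotated for nonsense-mediated decay, was past the limits for lower abundance together with its gene (log2 fold change −1.33, SE 0.29), from 13 to 20 counts in irradiated and 17 to 51 in control libraries. Over all 53 isoforms, 1 was called higher and 2 lower by abundance with the limit of 1 on the log2 fold change, where 3.36% of all transcripts were higher and 4.33% lower. With the adjusted p alone, 5 were higher and 13 lower, where 8.54% and 10.7% of all transcripts were. Nothing is read from the lower counts, because most of these isoforms belong to the canonical subunits already seen. The 5 higher ones include the PFDN1 isoform seen before, and near-identical isoforms are counted separately.

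No isoform of PFDN6 or URI1 passed the usage test. The 3 coding PFDN6 isoforms, ENST00000374606, ENST00000395131 and ENST00000374607, summed to 90.2%, 88.0% and 86.7% in irradiated and 91.5%, 81.0% and 88.3% in control cultures, and the retained-intron ENST00000491382 held 4.11% ± 0.88 and 5.07% ± 2.33 (SD, n = 3 each). In URI1, the principal ENST00000392271 held 39.5% ± 1.11 in irradiated and 42.6% ± 2.60 in control cultures, and ENST00000574110, annotated for nonsense-mediated decay, 37.6% ± 1.37 and 38.4% ± 3.25. ENST00000360605, a shorter protein_coding isoform of URI1, took 20.0%, 22.1% and 20.3% in irradiated and 12.1%, 18.1% and 15.6% in control cultures. These groups did not overlap, but they rest on 23 to 27 counts in irradiated and 7 to 15 in control libraries, and the usage test did not pass (adjusted p = 0.702, edgeR).

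The share of counts in protein_coding isoforms summed up these changes per gene. It was 67.7%, 73.7% and 68.4% for PFDN1 in irradiated cultures, against 87.4%, 89.4% and 82.8% in control cultures. For UXT it was 83.0%, 86.8% and 83.4% in irradiated and 95.8%, 95.4% and 91.7% in control cultures, and for PFDN2 80.1%, 85.2% and 82.4% against 90.8%, 92.5% and 88.2%. PFDN5 had 80.6%, 83.5% and 80.0% in irradiated and 88.3%, 89.9% and 86.1% in control cultures, a difference of −6.73 points that became −2.59 points when isoforms absent from the annotation were counted as non-coding.

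In these 4 genes no irradiated culture reached a control culture, the pattern found in 27.5% of the 6743 genes with isoforms of both kinds, whose median difference was −1.23 points. The differences were −16.6 points for PFDN1, −9.93 for UXT and −7.91 for PFDN2. For UXT, PFDN2 and PFDN5 p was 0.1 in a two-sided exact permutation test, the smallest value that 3 cultures against 3 allow, and for PFDN1, where the isoform seen before makes up most of the difference, no test is given. PFDN4 (−2.19 points) and PFDN6 (0.64 points) overlapped between the groups. The PFDN4 difference became −0.70 points when isoforms absent from the annotation were counted as non-coding. URI1 was higher in irradiated cultures by 2.40 points, and VBP1 stood at 100% throughout, because its usage change lies between 2 coding isoforms.

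**Figure D5:**
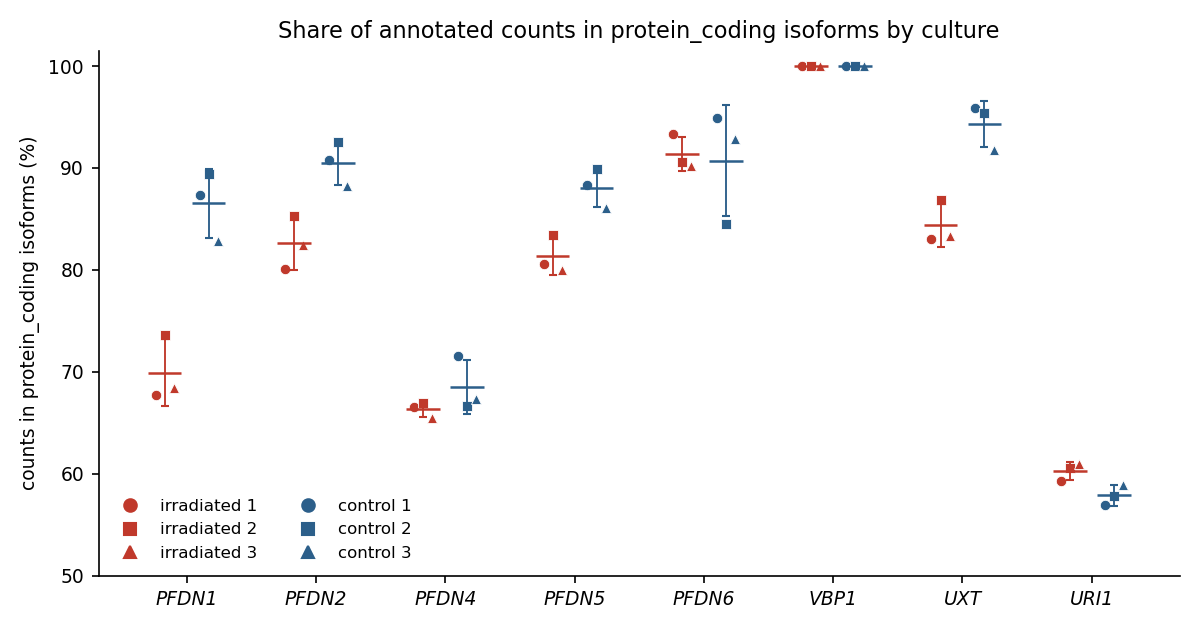
Percent of each member's annotated counts that falls on protein_coding isoforms in each culture, with irradiated cultures (red) left of control cultures (blue) and bars for the mean and SD (n = 3 each), on a y axis that starts at 50%. PFDN1, PFDN2, PFDN5 and UXT lie lower in every irradiated culture, and VBP1 stays at 100%.

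The working partners of prefoldin were compared in the same fit. Of 8 subunits of CCT, the chaperonin that receives prefoldin's clients, 1 passed as lower and 0 as higher, where 14.1% and 11.6% of all genes did, and the median log2 fold change was −0.26, or 0.19 with library totals. These subunits were part of the list seen before. CCT8 averaged 320.3 ± 5.93 CPM in irradiated and 428.2 ± 21.8 CPM in control cultures, CCT7 338.0 ± 10.8 and 416.0 ± 8.63 CPM, and TCP1 65.2 ± 4.27 and 81.1 ± 3.01 CPM (SD, n = 3 each). Of 4 cofactors of CCT, 2 passed as lower against the same 14.1% of all genes, PDCL3 (−0.73, adjusted p = 0.00313) and PDCD5 (−0.39, adjusted p = 0.0167), and TXNDC9 (−0.49, adjusted p = 0.0664) did not. PDCD5 missed the threshold without irradiated 1 (adjusted p = 0.0718), irradiated 3 (0.0597) or control 1 (0.0773), and with the length offset its log2 fold change was −0.05. With library totals PDCL3 no longer passed (−0.28, adjusted p = 0.124), and the log2 fold changes of CCT8 (0.04), CCT7 (0.15), TCP1 (0.14) and PDCD5 (0.06) were positive.

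Among 7 tested partners of the prefoldin-like complex 3 were lower and 0 higher (14.1% and 11.6% of all genes), and their median log2 fold change was −0.53, or −0.07 with library totals. RUVBL1 and RUVBL2, the paired ATPases, averaged 31.3 ± 2.39 and 102.7 ± 0.71 CPM in irradiated cultures and 51.0 ± 5.86 and 144.6 ± 13.0 CPM in control cultures (adjusted p = 0.00493 and 0.00793, edgeR). ASDURF, a small prefoldin-like subunit, averaged 6.64 ± 1.29 CPM in irradiated and 14.1 ± 2.11 CPM in control cultures (adjusted p = 0.00666, edgeR). With library totals none of RUVBL1 (−0.25), RUVBL2 (−0.04) and ASDURF (−0.63) passed. PDRG1, another subunit, was not among the genes tested.

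The clients and the tubulin cofactors moved in both directions. Of 12 tubulin and actin genes 5 were lower and 3 higher, where 14.1% and 11.6% of all genes were, and the median log2 fold change was −0.28, or 0.17 with library totals. TUBB3, the neuronal beta-tubulin, had 21.3, 22.0 and 24.5 CPM in irradiated and 9.78, 5.51 and 10.4 CPM in control cultures (a log2 difference of 1.40, adjusted p = 0.00125, edgeR). TUBB2B, another beta-tubulin, rose by 1.10 on the log2 scale (adjusted p = 0.00127, edgeR), and TUBG1, the gamma-tubulin of the centrosome, fell with −0.55 (adjusted p = 0.00314, edgeR), a call that was lost with library totals (−0.10, adjusted p = 0.274). Beta-tubulin genes are alike in much of their coding sequence, and how reads were divided among them was not examined. The 5 tested tubulin cofactors, which assemble tubulin dimers after CCT, had a median of 0.01, or 0.46 with library totals. Of the 5, 1 was lower and 2 higher, beside 14.1% and 11.6% of all genes. ARL2, a small GTPase, was lower (−0.82, adjusted p = 0.00106, edgeR), and TBCD (0.70, adjusted p = 0.0307) and TBCB (0.41, adjusted p = 0.0331) were higher. TBCD and TBCB each passed in only 2 of the 6 fits that leave out a library, with adjusted p from 0.0136 to 0.113 and from 0.0329 to 0.14.

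Over the 6 libraries, the genes whose log2 CPM followed the summed canonical subunits most closely among 6163 genes of at least 10 CPM were CDC42, ENSG00000295828 and RPS26, each with a Pearson r of 0.999. RPS26, a protein of the small ribosomal subunit, had 2073, 2751 and 2472 CPM in irradiated and 4588, 5276 and 3896 CPM in control cultures. These correlations are a description over libraries that share the group difference and the length trend.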

How the data were processed

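RNA of HMC3 cells was sequenced as Nanopore cDNA in 3 irradiated and 3 control cultures. Per the labels and the study's methods, the authors aligned reads to GRCh38 with minimap2 and quantified transcripts with Salmon, and the deposited values are whole-number counts per transcript. The sources used here gave no versions of minimap2 and Salmon, no annotation release and no strand handling. The kit adds molecular identifiers, and whether reads were collapsed by them is not stated. Salmon divides reads among the isoforms they match, so counts of like isoforms move together, and the deposited counts hold no read lengths.

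By the study's limits, genes with summed counts of at least 10 in at least 3 libraries were kept first. Of their transcripts, those with at least 3 counts in at least 1 library were kept, then genes with at least 2 such transcripts. Kept counts, 95.6% to 96.4% of each library, were added up for each gene. Both levels were tested by robust glmQLFit and glmQLFTest of edgeR 4.0.16 after TMM normalization (R 4.3.3), and usage by diffSpliceDGE, with p-values adjusted over all features by Benjamini-Hochberg. The SE is the absolute log2 fold change over the square root of F. CPM were scaled with the gene-level TMM factors, which ran from 1.09 to 1.24 in irradiated and from 0.793 to 0.928 in control libraries. IF came from counts without division by length, and permutation tests were exact and two-sided. The edgeR gene-level test and the usage test were checked on simulated counts with known changes, and the other steps were not. The alternatives were RLE factors, library totals, DESeq2 1.42.0, other filters, a length offset, limma 3.58.1 diffSplice, length-divided fractions, other call limits, a replicate block and the removal of each library in turn.

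The members, partner lists and rules were chosen with earlier results of these data known. Named were all members, their isoforms with a mean IF of at least 5% or a call, the 3 genes with the smallest adjusted p in each partner list, and the 3 genes of at least 10 CPM most like the summed canonical subunits. IsoformSwitchAnalyzeR, the study's tool for switches, was not run. Counts limit the precision most for PFDN6 and URI1, with 117 to 285 and 58 to 135 counts per library. Python 3.11.15 with pandas 2.3.3 and matplotlib 3.10.9 served for tables and plots.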

Additional observations from a re-analysis of the deposited data

How the results depend on the processing

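Of the members, 5 passed at gene level in the main comparison and also with RLE factors, DESeq2 and the stricter filter. With no filter 4 passed, as PFDN2 (log2 fold change −0.37) no longer did. The count was 3 with library totals (2 lower and 1 higher), 2 with the length offset, 0 with the limit on the log2 fold change, and 3 to 6 when 1 library was left out. With library totals the log2 fold change turned to 0.0069 for PFDN1, 0.0696 for PFDN2, 0.129 for VBP1, 0.151 for CCT7, 0.0364 for CCT8, 0.0648 for PDCD5 and 0.139 for TCP1. The median of all genes shifts by construction under that scaling. Isoforms called by abundance numbered 3, but 5 with RLE factors, 6 with library totals (0 lower and 6 higher), 18 with the adjusted p alone, and 1 to 7 with 1 library left out. Without control 2 the count was 1 and without control 3 it was 7. Isoforms called by usage numbered 2, but 4 with limma's diffSplice (2 higher and 2 lower) and 11 with the adjusted p alone, and 2 in each fit without 1 library. The 11 isoforms with higher usage became 9 to 12 without 1 library. Partner genes past the threshold numbered 17 (12 lower and 5 higher), 9 to 24 without 1 library (9 without irradiated 3 and 11 without irradiated 1), and 14 with library totals (1 lower and 13 higher). Among values that did not pass, some turned round when 1 library was left out. The log2 fold change of PFDN6 ran from −0.0522 to 0.412. The dIF of PFDN4 ENST00000493356 ran from −0.0153 to 0.666 points, that of PFDN6 ENST00000491382 from −1.78 to 0.379 points and that of URI1 ENST00000574110 from −2.53 to 0.693 points. The cause was not tested. The 4 genes with a lower coding share became 5 without irradiated 2 or control 2. The share of all features that passed under each alternative of this section is not given. Nothing about the members or partners is therefore read from these counts.

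Same-numbered cultures of the groups deviated together only in part (r = −0.03, 0.27 and 0.10 for numbers 1, 2 and 3), so the numbers were not taken as pairs. With the replicate number as a block, 5 members passed at gene level, 3 isoforms by abundance, 2 by usage, 11 by adjusted p of usage alone and 22 partner genes.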
